A study of Mus musculus with 6 samples.

Results

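The Nr4a orphan nuclear receptors are a family of 3 transcription factor genes, Nr4a1, Nr4a2 and Nr4a3. They were taken by symbol from a table of expected counts of mouse hippocampal RNA, which holds 32067 features, and all 3 were found and passed the filter on low counts. The 6 libraries came from wild type female C57BL/6J mice whose ovaries were removed on both sides (OVX), with tissue taken at 17 weeks of age. In 3 of them the mice ate a control diet (OVX), and in the other 3 they had 1% royal jelly, the food that worker bees make for larvae, added to the diet from 8 weeks of age (OVX+RJ). The labels call each library a biological replicate, and sham-operated mice named in the protocol are not analysed here. Setting OVX+RJ beside OVX addresses what royal jelly in the diet does to hippocampal RNA once the ovaries are lost. The family was chosen by its values in these same libraries, scaled to counts per library total and compared between the groups, so the differences of the 3 genes between the groups are given as a description, with no test.

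NR4A proteins bind DNA like other nuclear receptors, but their ligand pocket is filled by side chains of the protein itself, and their activity is set mainly by how much of them is made. In neurons all 3 genes are immediate early genes: calcium and cyclic AMP signals act through CREB, a factor bound to cyclic AMP response elements (CREs), and transcription starts without new protein synthesis. In the hippocampus the family is known for its part in the storage of long-term memory. Nr4a2 is also known as a gene that midbrain dopamine neurons need.

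The promoters of the 3 genes are shown because they share a feature that the choice of the family did not use. Each line gives the 250 bases before the RefSeq transcription start, on build GRCm38.p6 and on the strand of the gene, with the bases of every CRE core site, TGACG (the core of a CRE) or its reverse complement CGTCA, in capitals. The windows lie at chr15:101266596-101266845 for Nr4a1 on the + strand, chr2:57124004-57124253 for Nr4a2 on the - strand and chr4:48045055-48045304 for Nr4a3 on the + strand.
Nr4a1: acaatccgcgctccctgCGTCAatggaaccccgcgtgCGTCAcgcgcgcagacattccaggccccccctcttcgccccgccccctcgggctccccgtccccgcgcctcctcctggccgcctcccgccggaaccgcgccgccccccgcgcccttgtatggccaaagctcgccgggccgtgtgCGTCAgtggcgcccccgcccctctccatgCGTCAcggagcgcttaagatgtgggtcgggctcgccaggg
Nr4a2: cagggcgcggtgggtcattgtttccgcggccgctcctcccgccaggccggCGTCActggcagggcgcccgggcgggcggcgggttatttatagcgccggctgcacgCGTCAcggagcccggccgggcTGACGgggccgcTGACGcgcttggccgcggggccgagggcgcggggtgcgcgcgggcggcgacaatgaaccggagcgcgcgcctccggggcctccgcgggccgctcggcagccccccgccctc
Nr4a3: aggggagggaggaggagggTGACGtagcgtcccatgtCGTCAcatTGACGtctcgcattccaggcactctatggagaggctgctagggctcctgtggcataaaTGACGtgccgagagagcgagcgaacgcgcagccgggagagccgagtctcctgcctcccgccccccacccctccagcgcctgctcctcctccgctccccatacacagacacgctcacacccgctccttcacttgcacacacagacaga

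Each of the 3 windows held 4 CRE core sites. In Nr4a1 all 4 read CGTCA on the strand of the gene, beginning 233, 213, 69 and 40 bases before the start. In Nr4a2 they began 200, 144, 123 and 111 bases before the start, the first 2 as CGTCA and the last 2 as TGACG. In Nr4a3 they began 231, 213, 205 and 147 bases before the start, and 3 of them read TGACG. None of the windows held the full palindrome TGACGTCA, which counts as 2 overlapping core sites.

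Among 32851 RefSeq promoter windows of the same length, 17.8% held at least 1 CRE core site on either strand and 0.137%, or 45 windows, held 4 or more. The Nr4a genes account for 3 of these 45. In the 16279 windows of genes tested here the share with at least 1 was higher, at 24.4%. The share with 4 or more was not computed for them. Of the 46 other nuclear receptor genes of the mouse, 40 had a window, 10 of them held at least 1 core site, and the highest number was 3. The full palindrome occurred in 1.55% of all windows and in 2.34% of those of tested genes. GC content was 74.4%, 80.0% and 63.6% in the windows of Nr4a1, Nr4a2 and Nr4a3. The NR4A proteins' own monomer site, AAAGGTCA on either strand, was in none of the 3 windows and in 1.34% of all windows. Motifs of serum response factor (the CArG box) and of MEF2 factors were also in none of the 3, and in 1.47% and 0.508% of all windows. The GC box GGGCGG on either strand was in each of the 3 and in 32.7% of all windows. TATAAA on either strand was in the Nr4a2 window only, and in 12.4% of all windows. A match is a string of letters and does not show that a factor binds there.

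**Figure D1:**
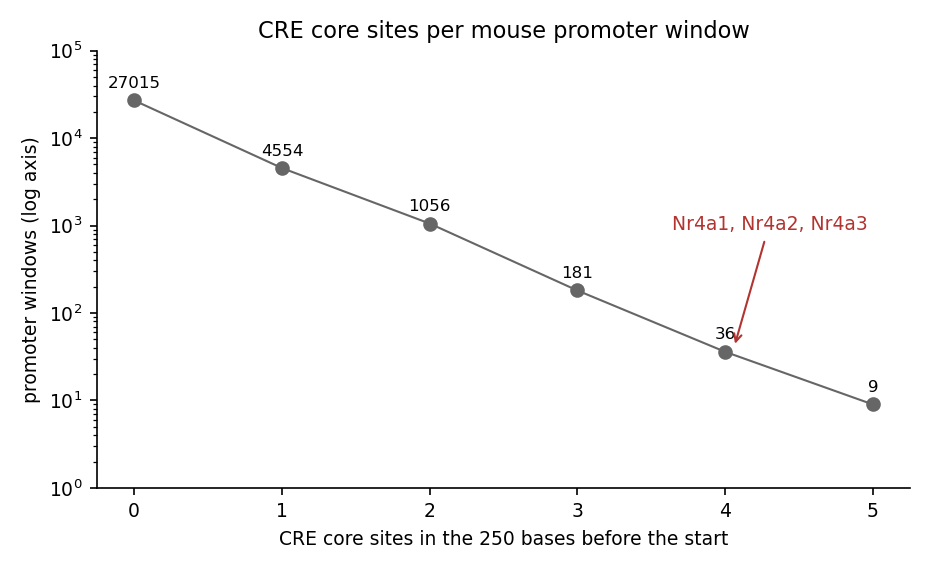
Number of CRE core sites (TGACG or CGTCA) in the 250 bases before the transcription start (x axis) against the number of RefSeq promoter windows with that number (y axis, log scale), with the number of windows beside each point. The arrow marks the windows of Nr4a1, Nr4a2 and Nr4a3, each with 4 core sites, a number reached or passed by 45 of 32851 windows.

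Library totals ran from 34718611 to 58163796 counts. Mitochondrially encoded genes took 6.46% to 6.91% of the counts. OVX+RJ 1 stood apart from the rest, with a mean Pearson correlation of 0.983 with the other libraries across genes, against 0.986 to 0.987 for the other 5. The 5 markers of hippocampal excitatory neurons, Slc17a7 among them, were abundant in each library. They summed to 6885 to 7321 CPM (counts scaled to a common library total) in OVX and 6619 to 7192 CPM in OVX+RJ libraries. Markers of dentate granule cells (6 genes) summed to 377 to 510 CPM in OVX and 329 to 490 CPM in OVX+RJ. All 6 had a negative log2 fold change of OVX+RJ against OVX, with a median of -0.14. Those of CA1 pyramidal cells (4 genes) summed to 439 to 498 CPM and 441 to 500 CPM. For CA3 pyramidal cells (5 genes) the sums were 261 to 299 CPM and 278 to 310 CPM. Summed markers of astrocytes (5 genes) read 1402 to 1420 CPM in OVX and 1308 to 1372 CPM in OVX+RJ. Those of microglia (5 genes) read 212 to 213 CPM and 195 to 206 CPM. Neither sum overlapped between the groups. OVX+RJ values lay wholly below OVX values at 0 of 5 astrocyte and 2 of 5 microglia markers, and at 5.95% of tested genes. Endothelial cell markers (5 genes) summed to 134 to 137 CPM in OVX and 112 to 137 CPM in OVX+RJ, with overlap. At 2 of these 5, OVX+RJ values lay wholly below OVX values. Oligodendrocyte markers (5 genes) ranged widely within a group, at 2455 to 4050 CPM in OVX and 2987 to 3972 CPM in OVX+RJ. In RNA from whole tissue, fewer cells of a type and less RNA per cell cannot be told apart.

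Nr4a1 had higher values in every OVX+RJ library than in any OVX library. Libraries OVX 1, 2 and 3 read 41.1, 47.6 and 47.2 CPM, and OVX+RJ 1, 2 and 3 read 73.7, 59.3 and 75.3 CPM. The groups did not overlap, and 11.8 CPM lay between the highest OVX and the lowest OVX+RJ library. OVX+RJ 2 was the lowest of its group. Group means of 69.4 ± 8.80 CPM (OVX+RJ) and 45.3 ± 3.61 CPM (OVX; both SD, n = 3) gave a ratio of 1.53, and the fitted log2 fold change was 0.63 (SE 0.13), or 0.57 without OVX+RJ 1. Relative to the OVX mean, the OVX+RJ libraries stood at 1.63, 1.31 and 1.66. As sums, the astrocyte and microglia markers were lower in OVX+RJ, with the same split of the libraries as Nr4a1. Most of the single markers did not split this way. The part of these cells in the values of Nr4a1 was not tested.

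Nr4a3 was higher in 2 of the 3 OVX+RJ libraries only. Libraries OVX 1, 2 and 3 read 86.0, 94.5 and 95.2 CPM, and OVX+RJ 1, 2 and 3 read 92.9, 121.7 and 123 CPM. OVX+RJ 1 lay inside the OVX range, so the groups overlapped, while OVX+RJ 2 and 3 lay well above it. With the libraries scaled by TMM factors, OVX+RJ 1 was at 95.0 CPM and the highest OVX library at 95.2 CPM, still an overlap. Group means of 112.6 ± 17.1 CPM (OVX+RJ) and 91.9 ± 5.13 CPM (OVX) gave a ratio of 1.23, with a log2 fold change of 0.30 (SE 0.13). Without OVX+RJ 1, the library that stood apart, the log2 fold change was 0.41. Leaving out the other libraries in turn gave 0.24 to 0.33.

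Nr4a2 showed no separation of the groups. The OVX libraries read 55.9, 43.7 and 52.9 CPM and the OVX+RJ libraries 49.9, 48.3 and 64.6 CPM. OVX+RJ 3 was the highest library and OVX 2 the lowest, and OVX+RJ 1 and 2 lay between the OVX libraries. Group means were 54.2 ± 8.97 CPM (OVX+RJ) and 50.8 ± 6.39 CPM (OVX), so the difference of 3.42 CPM was smaller than the SD of either group. The log2 fold change was 0.11 (SE 0.15). It was -0.03 without OVX+RJ 3 and 0.008 without OVX 2, and between 0.14 and 0.19 without each of the other libraries.

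Counting error was small beside the spread of the libraries. Each value above rests on 1428 to 5496 counts, and counting alone gives a coefficient of variation of 1.35% to 2.65%. Between libraries of a group the coefficient of variation was 7.97% in OVX and 12.7% in OVX+RJ for Nr4a1, 12.6% and 16.5% for Nr4a2, and 5.58% and 15.2% for Nr4a3. All 3 genes varied more among the OVX+RJ than among the OVX libraries, a difference that was not tested. A gene overlapping any of the 3 was not found in GENCODE M21, and the 1 gene within 5 kb, BB557941 beside Nr4a2, reached at most 42 counts in a library.

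**Figure D2:**
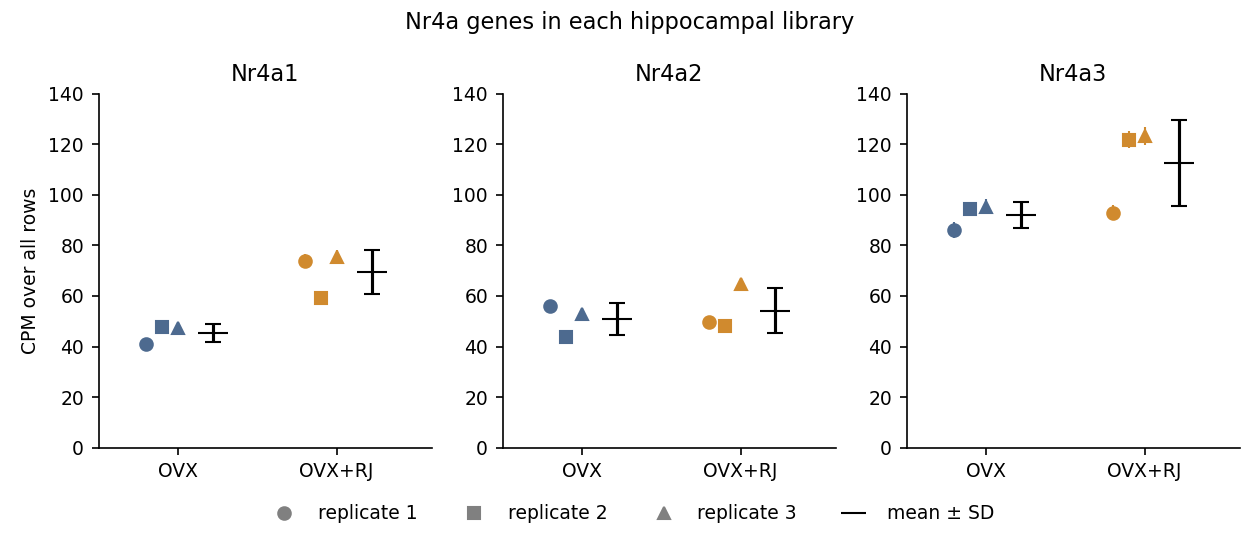
CPM over all rows (y axis) of Nr4a1, Nr4a2 and Nr4a3 in the OVX and OVX+RJ groups (x axis), with 1 symbol per library, exact Poisson 95% intervals of the count as thin lines and the group mean ± SD in black. The OVX+RJ libraries of Nr4a1 all lie above its OVX libraries, for Nr4a3 replicate 1 does not, and for Nr4a2 the groups overlap.

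After Benjamini-Hochberg adjustment over 18629 genes, edgeR's quasi-likelihood fit called 0 of them at 0.05, and so 0 of the 3 Nr4a genes, against a background of 0%. Unadjusted, 754 genes had p under 0.05, with 2.14% of tested genes higher and 1.91% lower. DESeq2 called 13 genes, 10 higher and 3 lower, with Nr4a1 among the higher and neither Nr4a2 nor Nr4a3 among the 13. With robust empirical Bayes edgeR called 3, and no Nr4a gene was among them. OVX+RJ values lay wholly above OVX values at 1 of the 3 Nr4a genes and at 4.53% of tested genes, and wholly below at 0 of the 3 and at 5.95%. All 3 Nr4a genes had a log2 fold change above 0, as did 49.6% of tested genes. The log2 fold change of Nr4a1 was exceeded by 2.58% of tested genes, that of Nr4a3 by 8.25% and that of Nr4a2 by 23.0%. As the genes were chosen with these values known, the shares and calls describe them and support nothing further.

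Nr4a1 also took a larger part of the family's counts relative to Nr4a2 in each OVX+RJ library. Ratios within a library do not depend on how libraries are scaled. The ratio of Nr4a1 to Nr4a2 counts read 0.736, 1.09 and 0.892 (OVX 1, 2 and 3) and 1.48, 1.23 and 1.17 (OVX+RJ 1, 2 and 3). The groups did not overlap: Nr4a2 had more counts than Nr4a1 in 2 of the 3 OVX libraries and fewer in each OVX+RJ library. The ratio of Nr4a1 to Nr4a3 was nearly the same in the OVX libraries, at 0.478, 0.503 and 0.496. In OVX+RJ it was 0.794, 0.487 and 0.611, so OVX+RJ 2 lay within the OVX range and OVX+RJ 1 stood highest. The 3 genes together summed to 183 to 195 CPM in OVX and 216 to 263 CPM in OVX+RJ.

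Levels of different genes can be compared only per length, here as CPM per kb of exon (the union of all exons in GENCODE M21). In OVX the order was Nr4a3 at 15.3 ± 0.857, Nr4a1 at 12.9 ± 1.03 and Nr4a2 at 12.5 ± 1.57 CPM per kb, and the last 2 did not differ beyond their spread. In OVX+RJ it was Nr4a1 at 19.8 ± 2.51, Nr4a3 at 18.8 ± 2.85 and Nr4a2 at 13.4 ± 2.21 CPM per kb, and by this length the first 2 did not differ beyond their spread. Where Nr4a1 and Nr4a3 stand to each other depends on the length used. Per kb of the longest transcript, Nr4a1 was at 17.7, Nr4a3 at 16.1 and Nr4a2 at 14.2 CPM per kb in OVX. By that length the OVX+RJ means were further apart, with Nr4a1 at 27.2, Nr4a3 at 19.7 and Nr4a2 at 15.2 CPM per kb. Nr4a2 was the lowest of the 3 group means by either length in both groups.

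Among nuclear receptor genes the family stood near the top. The mouse has 49 such genes, 45 were in the table and 37 passed the filter. By mean level per kb of exon over the 6 libraries Nr4a3 ranked 5, Nr4a1 ranked 6 and Nr4a2 ranked 8 of 45, and per kb of the longest transcript they ranked 7, 5 and 12. Above them in both orders were Thra, the thyroid hormone receptor alpha gene, Nr3c2, the mineralocorticoid receptor gene, and the clock repressor genes Nr1d1 and Nr1d2. Thra alone was at 179.9 ± 8.80 CPM per kb in OVX and 173.8 ± 7.12 CPM per kb in OVX+RJ. The glucocorticoid receptor gene Nr3c1 was at 13.2 ± 0.954 and 14.4 ± 0.893 CPM per kb, between Nr4a3 and Nr4a2 in both groups.

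The other nuclear receptor genes had differences on both sides of 0. Of the 34 tested, 0 were called by edgeR or by DESeq2, 16 lay above 0 on the log2 fold change scale and 18 below, and their median was -0.005 (0.03 without OVX+RJ 1), against -0.002 over all tested genes. OVX+RJ values lay wholly above OVX values at 1 of the 34, Rora, and wholly below at 1, Nr2c1. The shares over all tested genes were 4.53% and 5.95%. Nr2c1, an orphan receptor gene of another subfamily, averaged 9.48 ± 1.53 CPM with royal jelly and 12.0 ± 1.50 CPM without, and was the 1 receptor gene at an unadjusted p under 0.05 (adjusted p = 0.986, edgeR). Of the most abundant ones, Nr3c2 was at 224 ± 19.5 and 217 ± 3.00 CPM, and Nr2c2 at 137 ± 2.27 and 135 ± 2.91 CPM. By log2 fold change Nr4a1 ranked 1, Nr4a3 ranked 4 and Nr4a2 ranked 12 of 37. Between Nr4a1 and Nr4a3 were Nr1i3 and Pparg, each with a mean under 1 CPM over the 6 libraries.

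**Figure D3:**
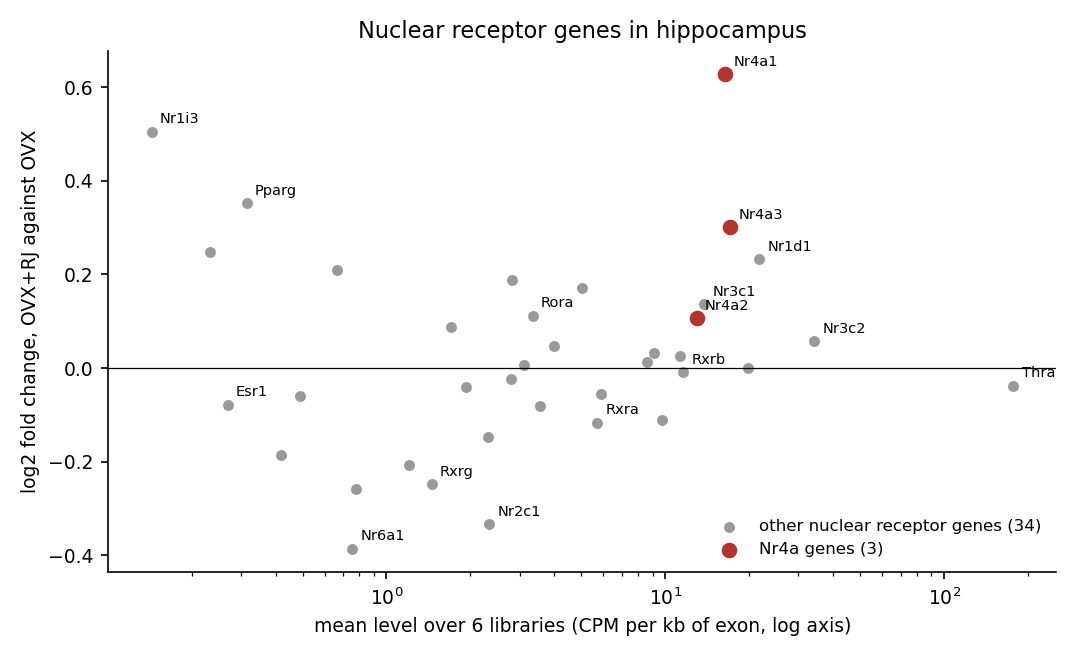
Mean level over the 6 libraries in CPM per kb of exon (x axis, log scale) against the fitted log2 fold change of OVX+RJ against OVX (y axis) for the 37 tested nuclear receptor genes, with the 3 Nr4a genes in red and the 34 others in grey. Nr4a1 has the highest value at 0.63, Nr4a3 is at 0.30 and Nr4a2 at 0.11, while the others run from -0.39 to 0.50.

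Partner and coregulator genes differed little between the group means. Nr4a1 and Nr4a2 proteins can pair with retinoid X receptors, and the genes of these averaged 29.8 ± 1.71 CPM with royal jelly and 32.5 ± 2.78 CPM without (Rxra), 45.6 ± 0.736 and 46.2 ± 0.670 CPM (Rxrb), and 3.04 ± 0.408 and 3.63 ± 0.556 CPM (Rxrg). All 3 log2 fold changes were negative, at -0.12, -0.01 and -0.25, and none exceeded 2 of its standard errors, which were 0.098, 0.065 and 0.15. Of the 16 genes of the list, which adds coactivators, corepressors and histone deacetylases, 0 were called and 0 had an unadjusted p under 0.05. The median log2 fold change was -0.01, with 6 positive and 10 negative. Among the most abundant were the corepressor gene Ncor1 at 287 ± 8.63 and 277 ± 13.7 CPM and the coactivator gene Ncoa1 at 190 ± 15.9 and 185 ± 6.47 CPM, in OVX+RJ and OVX.

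Genes upstream of NR4A transcription had values on both sides of 0. Of 27 tested, 0 were called by edgeR, 14 lay above and 13 below a log2 fold change of 0, and the median was 0.04 (-0.0002 without OVX+RJ 1). Creb1, the gene of CREB itself, averaged 67.7 ± 10.9 CPM with royal jelly and 69.1 ± 9.64 CPM without. At an unadjusted p under 0.05 (edgeR) were 3 genes lower and 1 higher, each at an adjusted p of 0.986. Of all tested genes, 1.91% were lower and 2.14% higher at that unadjusted p. The lower ones were Mrtfa and Mrtfb, coactivators of serum response factor, at 53.3 ± 2.94 against 65.4 ± 3.28 CPM and 223 ± 11.6 against 250 ± 16.7 CPM, and the kinase gene Rps6ka2 at 42.3 ± 2.71 against 51.1 ± 5.06 CPM.
The higher one was Rps6ka3, whose kinase can phosphorylate CREB. The OVX libraries read 17.8, 18.1 and 43.5 CPM and the OVX+RJ libraries 34.97, 43.0 and 47.7 CPM, so OVX 3 lay with the other group. Without OVX 3 its log2 fold change went from 0.67 to 1.24 and it was called by edgeR at an adjusted p of 0.0307. Leaving out the OVX library nearest to OVX+RJ in value widens the difference by itself, so this call is no support for it. Rps6ka3 was called in no other setting. Among the most abundant genes of the list were Ppp3ca of calcineurin and Adcy1, with log2 fold changes of 0.04 and -0.09.

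Activity-induced transcription factor genes, which share their inducing signals with the Nr4a genes, are set beside them by library. Of the 15 tested, 0 were called by edgeR and 4 by DESeq2, all higher. Over all 18629 tested genes DESeq2 called 10 higher. The median log2 fold change was 0.43, with 13 positive and 2 negative, and 0.19 without OVX+RJ 1. Unadjusted p (edgeR) was under 0.05 for Junb, Egr2, Fos, Egr1 and Egr4, all higher, beside 2.14% of all tested genes higher. For Fos the OVX libraries read 5.90, 6.52 and 6.80 CPM and the OVX+RJ libraries 22.1, 12.1 and 13.8 CPM. Egr2 stood at 1.81, 1.29 and 1.55 CPM and at 6.57, 3.66 and 6.12 CPM, and Junb at 36.4, 34.8 and 36.7 CPM and at 65.8, 51.6 and 61.6 CPM. In these 3 genes, as in Nr4a1, OVX+RJ 2 was the lowest of its group and every OVX+RJ library lay above the OVX range. Klf4 had lower values, and was not called. Its OVX libraries read 4.75, 4.14 and 4.47 CPM and its OVX+RJ libraries 4.00, 3.15 and 2.55 CPM, all below the OVX range. Of the most abundant genes of the list, Egr3 averaged 109.5 ± 3.78 CPM with royal jelly and 103.9 ± 4.59 CPM without, and Jun 99.6 ± 14.7 and 102.8 ± 8.31 CPM, with overlapping groups for both.

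OVX+RJ 1 stood high for Nr4a1 but not for Nr4a2 and Nr4a3. It was the highest of the 6 libraries at 9 of the 15 activity-induced transcription factor genes (60.0%), Fos, Fosb, Npas4 and Maff among them, and at 19.1% of all tested genes. With TMM scaling the numbers were 10 of 15 and 24.5%. For Nr4a1 it was just below OVX+RJ 3 by library total and just above it with TMM scaling, while for Nr4a3 and Nr4a2 it lay within the OVX range. The pattern of Nr4a3, with OVX+RJ 2 and 3 the highest 2 libraries, was found at 1 of the 15, Egr1, and at 7.19% of all tested genes, or 6.44% with TMM scaling. For Egr1 the OVX libraries read 101.6, 91.9 and 91.8 CPM and the OVX+RJ libraries 118, 124.7 and 140.7 CPM, and it differed from Nr4a3 in that OVX+RJ 1 also lay above the OVX range.

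**Figure D4:**
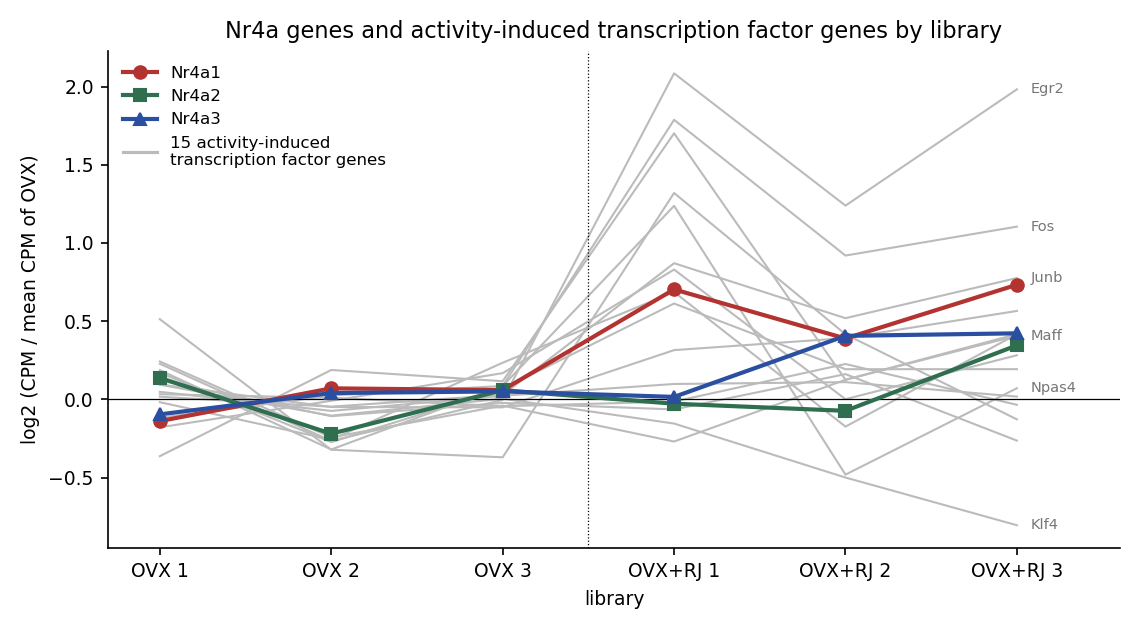
Log2 ratio of each library's CPM to the mean CPM of the OVX libraries (y axis) for the 3 Nr4a genes (coloured) and the 15 activity-induced transcription factor genes (grey) over the 6 libraries (x axis), where lines only join the values of a gene. In OVX+RJ 1 Nr4a1 stands at 1.63 times its OVX mean, while Nr4a3 at 1.01 times and Nr4a2 at 0.981 times lie near 0 on this scale.

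Activity-induced effector genes were taken next. Of 21 tested, 0 were called by edgeR and 1 by DESeq2, Arc. The median log2 fold change was 0.13 (0.09 without OVX+RJ 1), with 16 positive and 5 negative. At an unadjusted p under 0.05 were 6 genes, all higher: Arc, Per1, Sik1, Gadd45b, Plk3 and Dusp5. Of all tested genes, 2.14% were higher at that p. For Arc, whose product acts at synapses, the OVX libraries read 65.2, 95.8 and 86.3 CPM and the OVX+RJ libraries 122, 105.0 and 127.9 CPM. OVX+RJ 1 was the highest library at 9 of the 21 and at 19.1% of all tested genes. For Dusp1 it was at 24.1 CPM against 10.1 to 12.9 CPM in the other 5. The pattern of Nr4a3 was found at 4 of the 21 and at 7.19% of all tested genes. The 4 were the phosphatase genes Dusp5 and Dusp6, the scaffold gene Homer1 and the prohormone convertase gene Pcsk1. For Dusp5 it did not hold with TMM scaling, which left 3 of the 21, and all of its OVX+RJ libraries lay above the OVX range. Dusp6 stood at 50.2, 59.2 and 55.4 CPM and at 51.1, 67.1 and 69.1 CPM. The most abundant genes of the list, Plk2, Scg2 and Nrn1, had log2 fold changes of 0.09, 0.05 and -0.01.

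Genes downstream of the family were described by lists. Genes of endoplasmic reticulum chaperones have been reported to depend on NR4A factors in hippocampal memory. Of 19 tested, 0 were called by edgeR and 0 had an unadjusted p under 0.05, with 12 positive, 7 negative and a median log2 fold change of 0.03. The most abundant were, with royal jelly and without, Canx at 374 ± 16.8 and 364 ± 4.32 CPM, Hsp90b1 at 343 ± 28.7 and 331 ± 2.27 CPM, and Calr at 311 ± 21.7 and 316 ± 21.8 CPM. Of 8 genes that Nr4a2 supports in dopamine neurons, 6 passed the filter and 0 were called. Th, the rate-limiting enzyme of dopamine synthesis, was at 0.172 to 0.831 CPM over the 6 libraries, and the dopamine transporter gene Slc6a3 at 0 to 0.388 CPM. Pitx3 was at 0 in 5 of the 6 libraries and En1 in 5. The vesicular monoamine transporter gene Slc18a2 was at 4.95 to 6.04 CPM and Ddc, the gene of the enzyme that makes dopamine from its precursor, at 4.93 to 7.01 CPM, so not every gene of the list was near 0. The median log2 fold change of the 6 was 0.19, with 5 positive and 1 negative. Slc6a3 was at 0.64, Ret at 0.41, Th at 0.24, Slc18a2 at 0.15, Ddc at 0.11 and Aldh1a1, the most abundant, at -0.04.

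The genes most like each Nr4a gene were found by the Pearson correlation of log2 CPM over the 6 libraries, among 14687 tested genes with predicted genes and pseudogenes left out. With 6 libraries many genes reach high values: 34 genes were above 0.95 for Nr4a1, 13 for Nr4a2 and 15 for Nr4a3, and the points share their libraries, so the values are a description with no p. Nr4a1 was most like Sgk1, the gene of a kinase that serum or glucocorticoids induce (r = 0.987), followed by Cdk12, Cul4a, Tlk1, Zfp169, Ephb3, Opcml and Bhlhe40. For Sgk1 the OVX libraries read 65.7, 79.4 and 82.2 CPM and the OVX+RJ libraries 112.5, 93.1 and 115 CPM. OVX+RJ 2 was the lowest of its group, as for Nr4a1. The correlation holds the group difference too, so library patterns shared with the Nr4a genes follow from how the genes were picked.

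Among the genes most like Nr4a3 were Wdr62 (r = 0.991), Clic6, Phf13, Zscan20, Ccdc126, Stk17b and Vegfa. Clic6 is also a choroid plexus marker, with OVX libraries at 0.691, 1.39 and 0.957 CPM and OVX+RJ libraries at 1.22, 3.53 and 4.71 CPM. The 5 choroid plexus markers together summed to 24.5, 34.7 and 29.8 CPM (OVX) and 25.1, 44.4 and 52.8 CPM (OVX+RJ), so they too were highest in OVX+RJ 2 and 3. Their part in the values of Nr4a3 was not tested. Vegfa, a growth factor gene of blood vessels, stood at 41.7, 42.4 and 43.8 CPM and at 42.6, 49.2 and 52.7 CPM.

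Nr4a2 was most like Med12 (r = 0.992), Ptprt, Crispld2, Slc17a6, Cspg4b, Igsf9b, Plcb4 and Ahr. Slc17a6, a vesicular glutamate transporter gene that marks neurons of the thalamus and the subiculum more than those of CA1 or the dentate gyrus, read 11.5, 5.24 and 11.4 CPM (OVX) and 9.69, 6.07 and 20.4 CPM (OVX+RJ), with its highest value in OVX+RJ 3 and its lowest in OVX 2, as for Nr4a2. Nr4a2 is itself known to be strong in the subiculum, claustrum and deep cortex. The 11 markers of these regions in the table summed to 205, 169 and 178 CPM (OVX) and 165, 164 and 198 CPM (OVX+RJ), with OVX 1 and OVX+RJ 3 highest. These are also the 2 highest libraries of Nr4a2, and the part of these cells in its values was not tested. The mean of the 3 Nr4a genes was most like Hrh2, a histamine receptor gene (r = 0.999), followed by Tmx3, Hacl1, Cltc, Plin5, Nlrc4, Shoc2 and Xpo1.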

How the data were processed

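Hippocampal poly(A) RNA of 6 libraries, 3 per group, was sequenced from directional libraries, per the labels' protocols. The submitters' processing notes name build GRCm39, StringTie 2.2.1, HISAT2 2.2.1, fastp 0.23.4 and bcl2fastq 2.19, without roles. Annotation, strand setting and treatment of multiple alignments were not given in the sources used here. The table deposited by the authors holds expected counts per gene, not scaled between libraries, of which 51 features had values that were not whole. Values were rounded to whole counts, upwards where midway.

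CPM are counts divided by the library total over all rows and put on a common scale. The fit used R 4.3.3, edgeR 4.0.16 (filterByExpr, TMM, glmQLFit, glmQLFTest, Benjamini-Hochberg over 18629 genes, threshold 0.05) and was tested on simulated counts. Standard errors come from limma 3.58.1 fitted to log2 CPM (prior count 2). DESeq2 1.42.0 was an alternative, beside other scalings, filters, a replicate block and each library left out. P-values weigh the difference between the groups against the spread between these libraries. Intervals cover counting error only. Exon lengths came from GENCODE M21 (GRCm38), matched by symbol. The Nr4a genes and all lists were chosen with earlier results of these data known. Genes named in a list are those at an unadjusted p under 0.05, the 3 most abundant and the retinoid X receptors, and for likeness the 8 genes with the highest correlation. Others were named after their values were seen: Rora, Nr3c1, Nr1d1, Nr1d2, Nr1i3, Pparg, Creb1, Klf4, Fosb, Npas4, Maff, Dusp1, Dusp6, Homer1, Pcsk1, Th, Slc6a3, Ret, Pitx3, En1 and Zbtb16. Some genes that these rules name are not reported here.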

Additional observations from a re-analysis of the deposited data

How the results depend on the processing

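The log2 fold change of Nr4a1 ran from 0.62 to 0.63 over the other scalings, filters and tests, that of Nr4a3 from 0.29 to 0.30 and that of Nr4a2 from 0.09 to 0.11. With each library left out in turn the ranges were 0.56 to 0.73 for Nr4a1, 0.24 to 0.41 for Nr4a3 and -0.03 to 0.19 for Nr4a2, which is below 0 only without OVX+RJ 3. The number of genes called was 0 in the edgeR fit, 3 with robust empirical Bayes (Junb, Egr2 and Zbtb16) and 13 with DESeq2. With a library left out it was between 0 and 8, with 8 without OVX+RJ 2. Nr4a1 was among the 13 and among the 8, and Nr4a2 and Nr4a3 were called in no setting. With the replicate number as a block the number of genes called was 1, a predicted gene. Libraries with the same number did not deviate together (correlations across genes of 0.046, -0.002 and 0.003), so the numbers are not taken as pairs, and with the block the log2 fold changes of Nr4a1, Nr4a2 and Nr4a3 were 0.62, 0.10 and 0.29. The cause of these differences in calls was not tested. The counting coefficient of variation of the 3 genes was at most 2.65% in a library.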
